A study of Mus musculus with 4 samples.

Results

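The subunits of the oxidative phosphorylation machinery were followed in droplet single-cell RNA sequencing of the mouse colon. Members were chosen by gene symbol alone: nuclear genes of the Nduf, Sdh, Uqcr, Cox and Atp5 series, and the protein-coding genes of the mitochondrial genome. This gave 94 genes of the 29897 that the files list, 81 encoded in the nucleus and 13 in mitochondria, and all 94 were listed in each of the 4 libraries. The study compared colon from control mice with colon from specific-pathogen-free mice exposed to carbon tetrachloride (CCl4), which damages the liver and is a standard route to cirrhosis in rodents, with 2 libraries in each group. Treatment ran for 6 weeks from an age of 6 weeks. The labels give no strain, sex or genotype for either group, and no age, vehicle or duration for the controls. The number of animals behind a library is not labelled either, so p-values measure only the spread between libraries, which may be technical. The liver was not measured.

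Oxidative phosphorylation makes most of a resting cell's ATP in the inner mitochondrial membrane. Complexes I (NADH dehydrogenase) and II (succinate dehydrogenase) pass electrons through complex III to complex IV (cytochrome c oxidase), and complex V (ATP synthase) uses the proton gradient that I, III and IV build. Complex II is wholly nuclear encoded, while each of the others joins subunits of both genomes, so that both gene sets have to be expressed. The absorptive colonocyte is known for burning butyrate, a bacterial product, in its mitochondria. By complex, the nuclear members were 35 of complex I, 4 of II, 8 of III, 18 of IV (counting Ndufa4 and Ndufa4l2) and 16 of V. The mitochondrial members were 7 of complex I, 1 of III (mt-Cytb), 3 of IV and 2 of V. The choice by symbol left out Cox4i1, Cox4i2, Ndufab1, Cyc1, Cycs, Usmg5 and Atpif1, and took in Atp5s and Cox7a2l, which are accessory factors rather than core subunits.

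The libraries held 55834301 to 92383719 counts in 10021 to 13986 barcodes, of which 8102 to 10382 cells per library were used, 36519 in all. Cells above 25% mitochondrial counts were left out, a limit that acts on the members themselves and removed 12.4% to 13.7% of control and 16.2% to 20.9% of CCl4 barcodes. In the cells used, the median mitochondrial share was 4.56% to 4.84% in control and 6.84% to 7.52% in CCl4 libraries. Of the barcode names, 13113 occurred in more than 1 library, and 0 profiles were identical between libraries. Cells fell into 26 clusters, clustered without the members or any mitochondrial gene, and were named from marker genes; each name is short for a likeness (goblet stands for goblet-like). One epithelial cluster in which no single type led is called undivided epithelial. Unnamed cells made up 22.0% to 26.3% of control and 29.3% to 33.1% of CCl4 cells. The largest unnamed cluster, led by Gm26917, had 4544 cells. A cluster of 1081 cells carried both smooth muscle and mural (vessel wall) markers, among them Des, Myh11, Rgs5 and Notch3, and is called the contractile cluster. Levels are given for 13 named classes and this cluster. The control 2 library held only 30 B cells. The mitochondrial limit fell unequally on the classes, with barcodes assigned by their nearest kept cells. It removed 34.9% to 44.7% of colonocyte and 2.48% to 3.23% of fibroblast barcodes. Of undivided epithelial barcodes it removed 39.5% and 30.9% in control and 32.8% and 28.4% in CCl4 libraries. Mitochondrial shares and ratios of classes below are after this cut.

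Among the 14 classes, colonocytes carried the largest share of oxidative phosphorylation RNA from both genomes, and plasma cells the smallest from mitochondria. The largest unnamed cluster, which is not among them, had a mitochondrial share of 15.7% ± 0.818, overlapping that of colonocytes, and a nuclear share of 3.6% ± 0.252. The mitochondrial members took 15.3% ± 0.709 of colonocyte counts (mean ± SD, n = 4 libraries) and 13.1% ± 0.239 of undivided epithelial counts. The contractile cluster followed with 9.45% ± 1.08. These 3 stood in that order in each library. From the contractile cluster down to lymphatic endothelial cells (5.63% ± 0.543) each class overlapped the next: B cells at 7.61% ± 1.42, goblet cells at 7.47% ± 0.985, T cells at 7.09% ± 0.821, enteroendocrine cells at 6.88% ± 1.11, smooth muscle at 6.51% ± 0.235 and glia at 6.04% ± 0.876. Fibroblasts (4.71% ± 0.485), macrophages and monocytes (4.58% ± 0.533) and endothelial cells (4.56% ± 0.417) could not be ordered beyond their spread. Plasma cells, at 3.19% ± 0.838, were lowest.

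The nuclear members ran from 6.71% ± 0.199 of counts in colonocytes to 1.04% ± 0.0599 in plasma cells. Undivided epithelial cells had 5.54% ± 0.388, goblet cells 3.79% ± 0.0857, the contractile cluster 3.17% ± 0.0914 and smooth muscle 3.04% ± 0.309. The last 2 overlapped each other. Enteroendocrine cells had 2.76% ± 0.582, lymphatic endothelial cells 1.78% ± 0.0929, endothelial cells 1.56% ± 0.0358, glia 1.55% ± 0.0589 and fibroblasts 1.5% ± 0.0364. Macrophages and monocytes (1.32% ± 0.0418), T cells (1.28% ± 0.0496) and B cells (1.05% ± 0.147) stood low, near plasma cells. Shares sum counts of different genes without correction for length, so they compare classes, not genes.

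**Figure D1:**
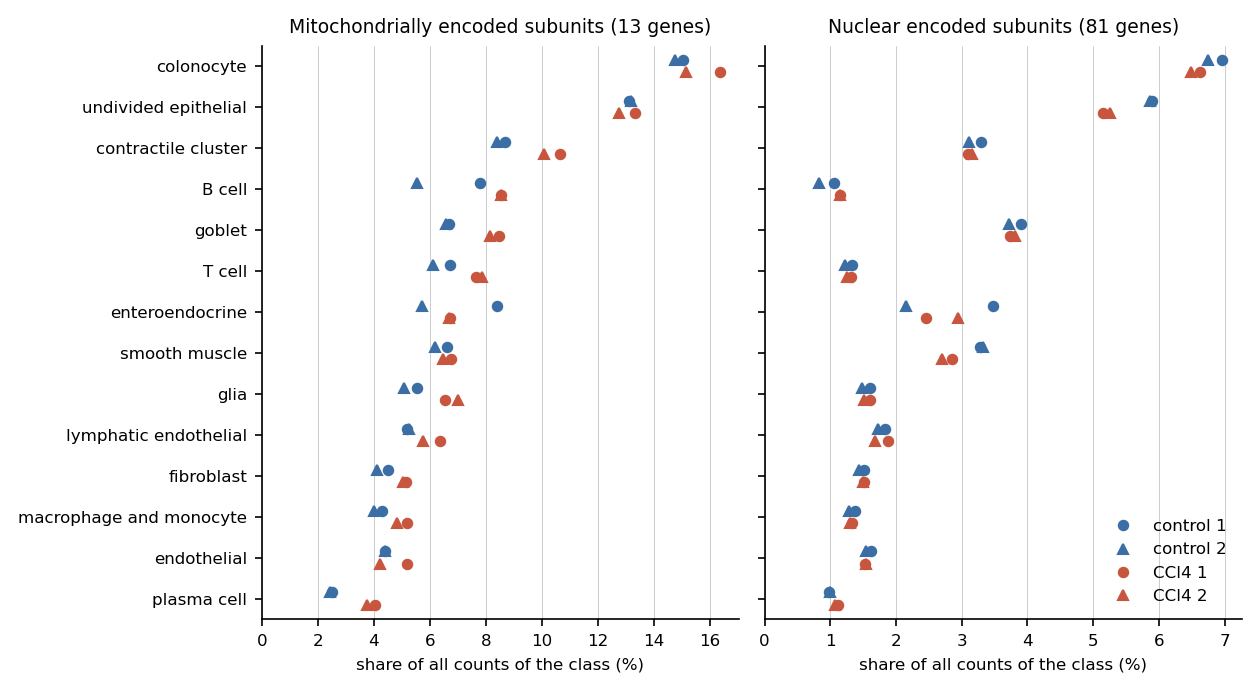
Share of counts (percent) taken by the 13 mitochondrially encoded and the 81 nuclear encoded members in each class, 1 point per library, control and CCl4 marked apart. Colonocytes stand highest in both, with 15.3% and 6.71% of counts on average, and plasma cells are lowest in the mitochondrial share.

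Both genomes followed a similar order across classes, with lymphocytes as the exception. To compare them, nuclear members were taken as a share of counts other than mitochondrial ones (7.92% ± 0.222 in colonocytes). The 14 classes share a library and its depth. Over them, Pearson's r between the mitochondrial share and this nuclear share was 0.909 in control 1 and 0.945 in control 2. It was 0.915 in CCl4 1 and 0.879 in CCl4 2. Spearman's rho was lower, at 0.631 to 0.776. The ratio of mitochondrial to nuclear counts was 7.22 ± 0.398 in B cells and 5.55 ± 0.629 in T cells, above every other class in each library. Glia had 3.90 ± 0.561. Goblet cells had the lowest ratio in each library, 1.97 ± 0.275 on average, beside 2.16 ± 0.261 in smooth muscle and 2.29 ± 0.143 in colonocytes, and these 3 overlapped.

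The members' own patterns matched these sums. Of the 81 nuclear members, 62 were highest in colonocytes and 9 in undivided epithelial cells, while 44 were lowest in B cells and 29 in plasma cells. Of the 13 mitochondrial members, 10 were highest in colonocytes and 12 were lowest in plasma cells. The highest class mean exceeded the lowest by a median of 8.37-fold over the 76 nuclear members that reached 20 CPM in a class (CPM is the depth-scaled count of a gene, relative to the total of its class), and by 4.23-fold over the mitochondrial members. Among the nuclear members with the widest range were Uqcr10 and Uqcr11, small subunits of complex III, Uqcrb of the same complex, Ndufc1 and Ndufb9 of complex I, and Cox6c of complex IV. All 6 had their highest mean in colonocytes. Cox6c had 3345 CPM ± 81.8 there and 239 CPM ± 137 in B cells. Uqcr10 had 1023 CPM ± 49.6 in colonocytes and 60.4 CPM ± 14.3 in plasma cells.

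Isoforms known from particular tissues had the widest ranges over classes. Ndufa4l2, a paralogue of Ndufa4 known as a target of the hypoxia response, had 372.9, 456.7, 405.9 and 407.6 CPM in the contractile cluster (order control 1, control 2, CCl4 1, CCl4 2 here and below). The next class, smooth muscle, had 4.99 CPM ± 3.87, and B cells had no count, which put the contractile cluster at least 149.5-fold higher by a floor of 3 counts over the class. All 4 contractile values lay far above any other class, and the groups overlapped. Cox4i2, an isoform of complex IV subunit IV outside the rule for members, showed the same restriction, with 304.6 CPM ± 17.4 in the contractile cluster and at most 4.57 CPM as a mean in any other class. Sdhc, a membrane anchor of complex II, was also highest there, with 537 CPM ± 31.4 against 436 ± 17.7 in colonocytes and 24.5 ± 16.9 in B cells.

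Cox7a1, known as the heart and muscle isoform of subunit VIIa, was highest in colonocytes. It had 422.2, 350.4, 410.2 and 382.3 CPM there, 161 ± 32.9 in undivided epithelial cells, 47.1 ± 6.29 in goblet cells and 24.1 ± 3.40 in smooth muscle. Colonocytes stood above every other class in all 4 libraries. Its paralogue Cox7a2 was high in the same classes, with 1620 CPM ± 104 in colonocytes, but kept 160 ± 51.2 in B cells, where Cox7a1 had 4.61 ± 5.34. The highest mean was 84.8 times the lowest for Cox7a1 and 10.1 times for Cox7a2. Cox6b2, known as the testis isoform of subunit VIb, ran against the epithelial pattern. It had 32.1, 42.6, 45.3 and 41.5 CPM in smooth muscle and 31.7 ± 7.13 in fibroblasts, while colonocytes had 0.242 ± 0.173. Its paralogue Cox6b1 was highest in colonocytes, at 2362 CPM ± 232.

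Other isoform sets split less sharply. Ndufa4 had similar means in goblet cells (747 CPM ± 38.2) and smooth muscle (744 ± 51.3), and less in colonocytes (307 ± 37.3). The 3 genes for the c subunit of complex V, which give the same mature protein, differed in their leading class. Atp5g1 and Atp5g2 were highest in undivided epithelial cells (965 CPM ± 149 and 914 ± 98.1), and Atp5g3 in colonocytes (2248 ± 19.3). The heart and muscle isoforms Cox6a2 and Cox8b stayed under 5 CPM in each class, with highest means of 1.87 and 4.4 CPM. Cox6a1 and Cox8a reached 3027 ± 113 and 3020 ± 144 CPM in colonocytes.

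**Figure D2:**
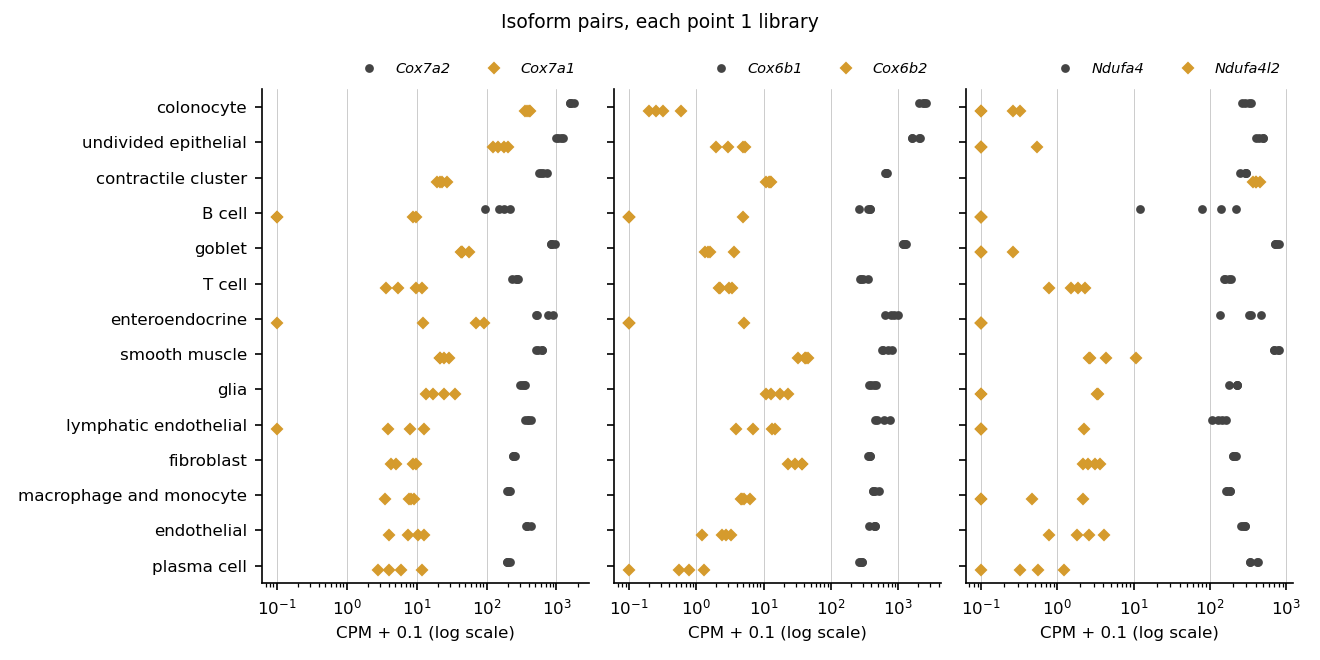
Levels of 3 isoform pairs of complex IV in each class, as CPM plus 0.1 on a log axis, 1 point per library. Cox7a1 is highest in colonocytes, Cox6b2 in smooth muscle and fibroblasts, and Ndufa4l2 in the contractile cluster at 372.9 to 456.7 CPM.

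The start sites of members that differ this way are shown for the complex IV pair and for Atp5k, a complex V subunit described further on. RefSeq windows of 250 bases before to 50 after the start were on GRCm38.p6, and 66 of the 81 nuclear members had one, 71 windows in all. The core of nuclear respiratory factor 1 (NRF1), GCGCA, any base and then GCGC, was in 25.4% of member windows and 4.6% of all 32851 windows, on either strand. The ETS core CCGGAAG, read by GABP among others, was in 22.5% and 8.86%, and the YY1 core AANATGGC in 22.5% and 6.05%. TATAAA was in 11.3% and 13.6%. These are letter matches, not measured binding. Matches to these letters are in capitals below, the ETS core on the other strand. The windows are Cox7a1 at chr7:30183921-30184220 (plus strand), Cox7a2 at chr9:79759804-79760103 (minus) and Atp5k at chr5:108434350-108434649 (minus). Neither Cox7a window held any of the 4 motifs. The Atp5k window held the NRF1 core starting at -50 and the ETS core at 12 from the start site.
Cox7a1: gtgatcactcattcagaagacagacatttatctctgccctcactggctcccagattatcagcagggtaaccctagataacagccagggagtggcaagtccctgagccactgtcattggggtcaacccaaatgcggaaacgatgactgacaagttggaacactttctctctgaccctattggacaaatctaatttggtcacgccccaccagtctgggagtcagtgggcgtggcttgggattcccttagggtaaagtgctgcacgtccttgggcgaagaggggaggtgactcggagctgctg
Cox7a2: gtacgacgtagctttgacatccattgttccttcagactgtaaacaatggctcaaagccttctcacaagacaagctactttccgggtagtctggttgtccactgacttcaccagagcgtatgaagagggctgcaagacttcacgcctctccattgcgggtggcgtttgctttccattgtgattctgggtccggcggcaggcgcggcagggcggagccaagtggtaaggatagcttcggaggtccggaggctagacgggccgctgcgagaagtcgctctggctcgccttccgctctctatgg
Atp5k: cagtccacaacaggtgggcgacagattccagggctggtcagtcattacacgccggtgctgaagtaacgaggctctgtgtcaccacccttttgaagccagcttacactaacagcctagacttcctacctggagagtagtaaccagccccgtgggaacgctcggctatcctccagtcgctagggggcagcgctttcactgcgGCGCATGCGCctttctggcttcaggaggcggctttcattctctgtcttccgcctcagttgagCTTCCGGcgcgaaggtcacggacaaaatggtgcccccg

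In CCl4 libraries the balance of the genomes moved toward mitochondrial transcripts in most classes. The log2 ratio of mitochondrial to nuclear counts was higher by 0.52 in plasma cells, 0.34 in goblet cells, 0.33 in glia, 0.31 in the contractile cluster, 0.30 in smooth muscle and 0.29 in macrophages and monocytes. It was higher by 0.27 in T cells, 0.22 in lymphatic endothelial cells and in fibroblasts, 0.16 in undivided epithelial cells, 0.14 in colonocytes and 0.10 in B cells. In these 12 classes the groups did not overlap. In endothelial cells (0.12) and enteroendocrine cells (-0.03) they did, and the endothelial difference was -0.03 without the CCl4 replicate 1 library. No test was made of these sums. An exact permutation of 2 against 2 libraries cannot go below 1 in 3, two-sided. In plasma cells the mitochondrial share was 2.52% and 2.43% in control and 4.06% and 3.75% in CCl4 libraries, and the nuclear share 0.989%, 0.998%, 1.11% and 1.07%. In undivided epithelial cells and smooth muscle it was the nuclear share that differed.

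**Figure D3:**
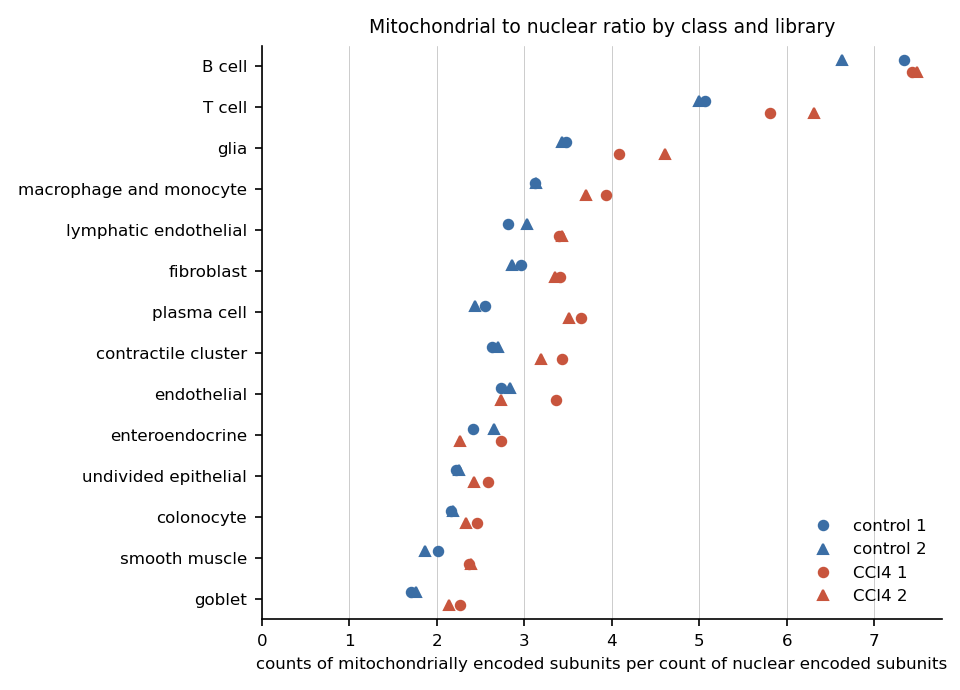
Ratio of mitochondrially to nuclear encoded member counts in each class, 1 point per library, control and CCl4 marked apart. B cells and T cells stand highest at means of 7.22 and 5.55, and CCl4 libraries lie above control libraries in 12 of 14 classes.

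Mitochondrially encoded members were called higher in CCl4 libraries in 9 of the 12 classes fitted, and 0 were called lower in any. Under alternatives, 1 was called lower in undivided epithelial cells with the replicate number as a block, and 1 each in undivided epithelial cells and smooth muscle without CCl4 replicate 1. Changes were tested with edgeR's quasi-likelihood test on the summed counts of each class and library, with adjustment over all genes of the class and a threshold of 0.05. In such sums, fewer cells with a transcript and less of it per cell cannot be told apart. Of 81 nuclear members 74 passed the low-count filter in all 8 classes planned for testing, and 12 of 13 mitochondrial members did. Cox6a2 and Cox8c passed in none, and mt-Nd4l in 4. Goblet cells had 9 of 13 members called (0.859% of all tested genes were called higher there), plasma cells 8 of 12 (0.983%), fibroblasts 4 of 13 (1.43%) and macrophages and monocytes 3 of 12 (0.938%). T cells had 2 of 12 called (0.473%), mt-Nd2 and mt-Nd5, and colonocytes 1 of 13 (0.33%), mt-Nd2. Outside the planned classes, glia had 7 of 12 (0.501%), the contractile cluster 7 of 12 (0.643%) and lymphatic endothelial cells 1 of 12 (0.205%), mt-Co1. Endothelial cells, undivided epithelial cells and smooth muscle had 0 called, with 4, 2 and 2 members at an unadjusted p under 0.05, and DESeq2 also called 0 in each. The share of all genes called in either direction, at the adjusted threshold, was 0.707%, 4.09% and 3.22% there. No share of all genes at an unadjusted p was computed, here or below, so such counts of members have no background beside them.

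The median change of the mitochondrial members was 0.60 in plasma cells, 0.41 in goblet cells, 0.37 in fibroblasts, 0.36 in T cells and in macrophages and monocytes, 0.16 in colonocytes and -0.01 in undivided epithelial cells. The median of all tested genes lay between -0.01 and 0.01 in each of these classes. A change is the log2 of CCl4 over control, followed by its standard error (SE), and the CPM beside it are on edgeR's scale.

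The complex I subunit gene mt-Nd2 (chrM:3914-4951) moved most often. It was called in 6 of the 8 planned classes, and its estimate was above 0 in 12 of 12 fitted, from 0.24 to 0.81. In plasma cells mt-Nd2 had 397.8, 453.6, 807.8 and 685.3 CPM (0.81, SE 0.118, edgeR adjusted p = 0.0129). In goblet cells mt-Nd2 had 868.5, 1147, 1689 and 1503 CPM (0.66, SE 0.109, edgeR adjusted p = 0.01099). Both CCl4 libraries were above both controls in each class. Colonocytes showed a smaller rise of mt-Nd2, from 1613 and 1981 to 2726 and 2281 CPM (0.48, SE 0.102, edgeR adjusted p = 0.0291), the groups again apart.

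Of complex IV, mt-Co1 (chrM:5328-6872), which holds the catalytic core of the oxidase, rose in 7 fitted classes. In goblet cells mt-Co1 had 19510, 19000, 25060 and 24680 CPM (0.37, SE 0.0474, edgeR adjusted p = 0.002229). In plasma cells it had 7372, 6442, 10940 and 10330 CPM (0.62, SE 0.0923, adjusted p = 0.01427 in edgeR). In the contractile cluster it had 20430, 19710, 27050 and 26760 CPM (0.42, SE 0.0533, edgeR adjusted p = 1.917e-06). The control and CCl4 libraries did not overlap in these classes. The companion subunit mt-Co2 was called only in goblet cells and glia, at 0.28 and 0.25 (edgeR adjusted p = 0.03073 and 0.01134).

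The other mitochondrial members followed in part. In goblet cells mt-Cytb of complex III rose by 0.49, mt-Nd4 and mt-Nd5 of complex I by 0.47 and 0.54, and mt-Atp6 of complex V by 0.41. In plasma cells the same genes rose by 0.62, 0.68, 0.72 and 0.59. mt-Nd6, the only member on the other strand (chrM:13552-14070), was called in no class, with 37.1, 58.6, 66.2 and 58.7 CPM in goblet cells. Its estimate was above 0 in 12 of 12 classes fitted. On the same strand as the rest, mt-Nd3 was called in 0 of the 8 planned classes and mt-Nd4l in 0 of the 4 where it was tested. mt-Nd6 and mt-Nd5 share 14 bases, mt-Atp8 and mt-Atp6 43 bases, and mt-Nd4l and mt-Nd4 7 bases, and no source used here states whether counting used strand.

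**Figure D4:**
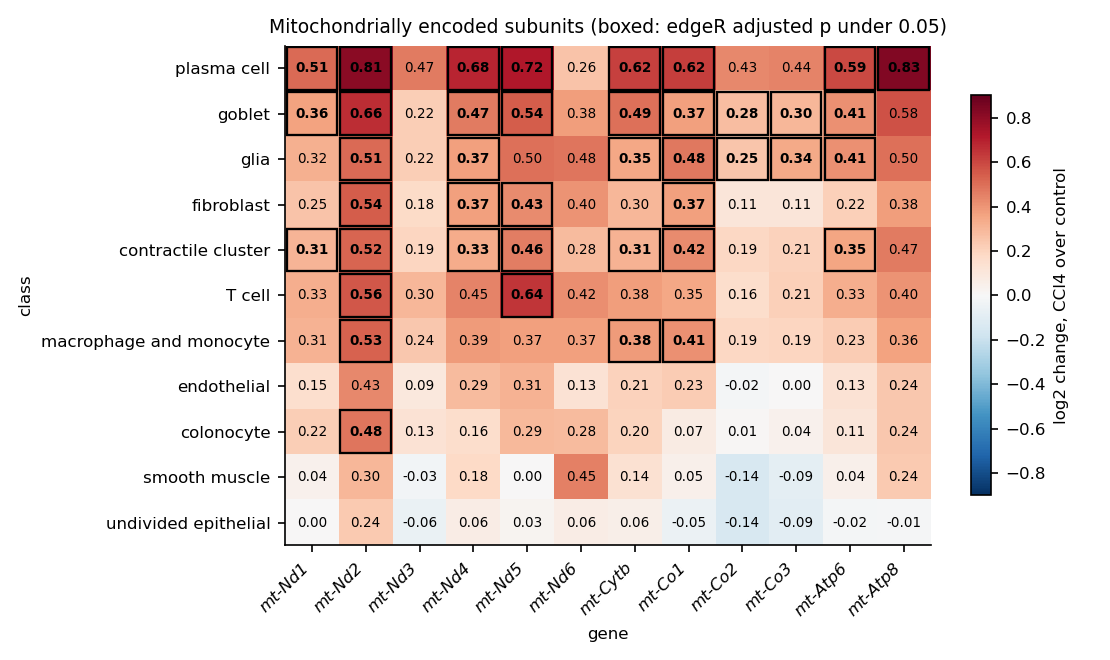
Heat map of the log2 change, CCl4 over control, of mitochondrially encoded members (columns) in fitted classes (rows). Boxes mark calls at an edgeR adjusted p under 0.05, and lymphatic endothelial cells and mt-Nd4l are not drawn. Rises are strongest in plasma and goblet cells, where mt-Nd2 stands at 0.81 and 0.66, and in undivided epithelial cells the median is -0.01.

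Within the mitochondrial counts the proportions of genes also differed between groups. The part taken by mt-Co2 was lower in CCl4 libraries in 14 of 14 classes, without overlap in 14, and that of mt-Co3 in 14, without overlap in 10. The part taken by mt-Nd2 was higher in 14 classes (10 without overlap), mt-Co1 in 13 (11), mt-Nd4 in 13 (10) and mt-Nd5 in 13 (9). In fibroblasts mt-Co2 made up 27.6%, 26.8%, 25.2% and 24.8% of mitochondrial counts, and mt-Nd2 1.34%, 1.79%, 1.97% and 1.89%. In undivided epithelial cells mt-Co2 made up 25.1%, 24.8%, 23.5% and 23.4%. The CCl4 over control ratio of mt-Co2 parts lay between 0.902 and 0.951 over the classes. All classes of a library share its preparation, so the 14 classes are not 14 separate observations.

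Transcripts of epithelial genes were also called higher in CCl4 libraries outside the epithelium. In endothelial cells Muc2 was higher by 1.48 and Krt8 by 1.18 on the log2 scale, among others. Of 20 epithelial transcripts that can leak into other droplets, such as Muc2 and Krt8, 13 of 20 were called higher in fibroblasts, 11 of 19 in plasma cells, 10 of 17 in T cells and 10 of 15 in glia. Their summed share in fibroblasts was 0.0605% and 0.0563% in control and 0.125% and 0.136% in CCl4 libraries. In plasma cells it was 0.0278%, 0.0359%, 0.113% and 0.0977%, and none of the 20 was at 0. In cells with at most 0.25% of such counts, a limit chosen after seeing the data, 1 mitochondrial member was called in fibroblasts, 1 in macrophages and monocytes, 2 in T cells, 4 in plasma cells, 1 in glia and 2 in the contractile cluster. Calls over all genes went from 321 to 167 in fibroblasts, 81 to 60 in T cells and 156 to 88 in plasma cells. They went from 65 to 9 in glia, 66 to 12 in the contractile cluster and 138 to 145 in macrophages and monocytes. The log2 ratio of mitochondrial to nuclear counts was then higher by 0.11 in fibroblasts and 0.50 in plasma cells. At this limit the median change of mitochondrial members went from 0.37 to 0.23 in fibroblasts and 0.60 to 0.53 in plasma cells. In endothelial cells it went from 0.18 to 0.08, and members at an unadjusted edgeR p under 0.05 from 4 to 1 of 12. None was called there at either setting. Cox7a1, the member most restricted to colonocytes, had 2.97, 3.95, 11.6 and 5.65 CPM in plasma cells, a change of 1.33 that was not called (edgeR adjusted p = 0.2078). RNA-quality transcripts (Malat1, Neat1, Kcnq1ot1 and Meg3) had 0 of 4 called in fibroblasts and plasma cells.

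Markers of other cells moved in goblet cells as well, the class with the most mitochondrial calls. Of 8 colonocyte markers tested, 2 were called higher, Car1 by 1.74 and Krt20 by 1.33, and their summed share was 0.103% and 0.101% in control and 0.121% and 0.141% in CCl4 libraries. Of 6 enteroendocrine markers 2 were higher (Gcg and Pyy), of 6 fibroblast markers 1 (Col3a1) and of 4 erythroid markers 3. Of 10 goblet markers, Muc2 and Retnlb were called lower by 0.52 and 0.96 on the log2 scale and Atoh1 higher by 1.24, with sums of 2.74%, 3.03%, 2.34% and 2.36%. None of these lists had a marker at 0, and their part in the goblet cell rise was not tested.

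The limit on mitochondrial counts bears on these counts as well. With cells of at most 10% mitochondrial counts, 0 members were called in goblet cells, T cells, colonocytes, glia and the contractile cluster, 1 each in fibroblasts and in macrophages and monocytes, and 4 in plasma cells. In undivided epithelial cells the limit worked the other way, with 4 of 12 called higher in place of 0 of 13, and a median of 0.26. Calls over all genes fell too, from 149 to 47 in goblet cells, 81 to 57 in T cells and 117 to 19 in colonocytes. They fell from 65 to 16 in glia, 66 to 11 in the contractile cluster, 321 to 185 in fibroblasts and 156 to 103 in plasma cells. In macrophages and monocytes they went from 138 to 149. The median of mitochondrial members was then 0.29 in goblet cells and 0.13 in glia, with 11 of 13 and 3 of 12 at an unadjusted edgeR p under 0.05. The ratio stayed higher in CCl4 libraries, by 0.24 in goblet and 0.42 in plasma cells. Without the CCl4 replicate 1 library, 1 of the plasma cell calls was left. The part of leaked RNA and of the mitochondrial limit in the rise was not tested beyond these values.

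In undivided epithelial cells, a single cluster of 2022 cells, 28 of 76 nuclear members tested were called lower and 0 higher (2.5% of all genes tested there were called lower). Their median change was -0.20 against 0.00 for all genes, and 10 of the 76 had estimates above 0. DESeq2 called 30. By complex, 13 of 35 fell in I, 1 of 4 in II (Sdhb), 3 of 8 in III, 4 of 13 in IV and 7 of 16 in V. The nuclear share was 5.89% and 5.86% of counts in control and 5.16% and 5.26% in CCl4 libraries, while the mitochondrial share was 13.1%, 13.2%, 13.3% and 12.8%.

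The 5 smallest p-values among the members there belonged to subunits of complexes III, V and I. Uqcrq, a complex III subunit (chr11:53427922-53430831), had 1195, 1178, 805.9 and 799.8 CPM (-0.56, SE 0.0678, edgeR adjusted p = 0.0001075). Atp5j2, subunit f of complex V, had 1980, 1999, 1403 and 1429 CPM (-0.49, SE 0.0628, edgeR adjusted p = 0.0001914). Atp5k, subunit e of complex V, whose start site is printed above, had 994.5, 1019, 721.3 and 648.9 CPM (-0.55, SE 0.0744, edgeR adjusted p = 0.0003007). Both CCl4 libraries were below both controls for each gene. The calls were made on the same values, so this separation adds no support. Ndufa13 of complex I fell by 0.49 and Atp5e, the epsilon subunit of complex V, by 0.44 on the log2 scale (edgeR adjusted p = 0.0006357 and 0.0007671). Ndufa13 overlaps the annotated gene Yjefn3 on the same strand and Tssk6 on the other, so its count is less certain. This limit is not particular to Ndufa13: of the 81 nuclear members, 36 overlap another annotated gene and 28 overlap one on the other strand.

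Of the complex IV members, Cox7a1 fell from 203.3 and 179.2 to 125.1 and 141.3 CPM (-0.52, SE 0.104, edgeR adjusted p = 0.008076), and Cox7a2 by 0.27 (adjusted p = 0.04077). Cox6b1 and Cox5a, the subunits also called, fell by 0.41 and 0.29. In complex III, Uqcr10 and Uqcr11 fell by 0.42 and 0.43. The remaining calls, 12 further genes of complex I, Sdhb of complex II and 4 further of V, had changes from -0.50 to -0.27. In the promoter windows of members called lower, 5 of 25 held the NRF1 core and 7 of 25 the ETS core, beside 12 of 39 and 9 of 39 among those not called.

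**Figure D5:**
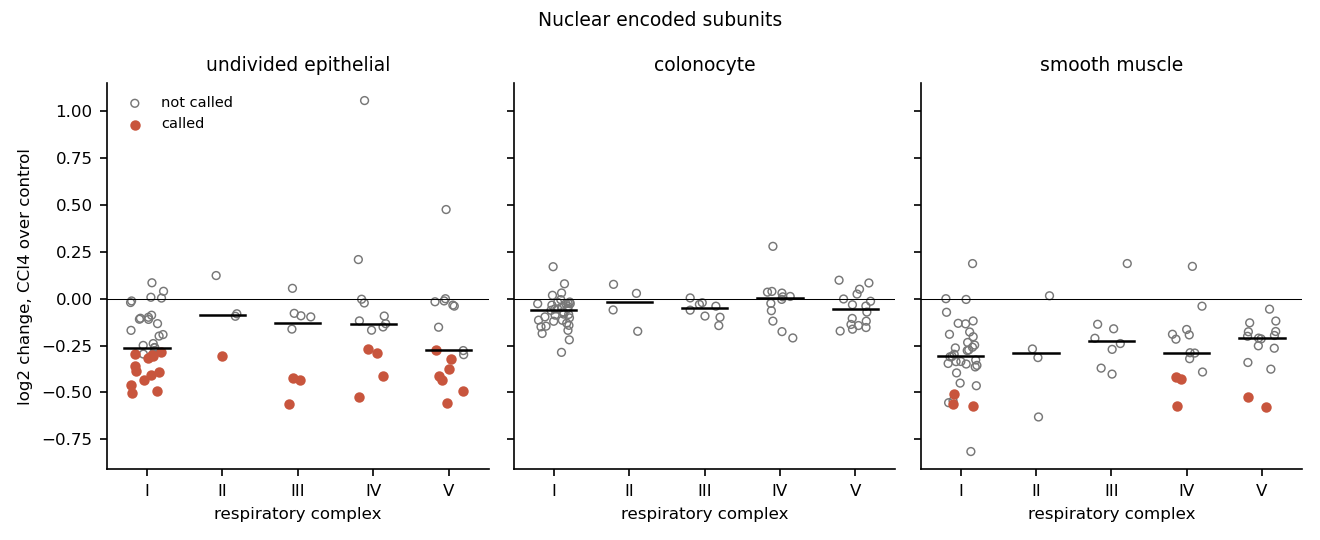
Log2 change, CCl4 over control, of each tested nuclear encoded member by complex in undivided epithelial cells, colonocytes and smooth muscle, with a bar at the median. Undivided epithelial cells and smooth muscle have medians of -0.20 and -0.27 over all complexes, and colonocytes -0.05.

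Epithelial markers moved in the same cluster. Of 9 colonocyte markers, 6 were called lower and 0 higher (Car1 by 1.1, Krt20 by 0.84 and Slc26a3 by 0.77 on the log2 scale), and their summed share was 0.475% and 0.493% in control and 0.277% and 0.328% in CCl4 libraries. Of 9 goblet markers tested, 3 were called higher, Muc2 by 1.41, Spink4 by 1.19 and Agr2 by 0.57, with sums of 0.0356%, 0.0260%, 0.0462% and 0.0531%. Of 5 crypt stem markers 1 was called higher, Slc12a2 by 0.60. Of 6 markers of proliferation 0 were called. None of these lists had a marker at 0. The cluster held 313 and 268 control and 784 and 657 CCl4 cells. Colonocytes, the class with the highest nuclear share, had 0 of 75 nuclear members called. Their estimates were above 0 for 4 of 35 members in complex I, 2 of 4 in II and 1 of 8 in III. They were above 0 for 6 of 12 in IV and 4 of 16 in V, so most leaned lower there too. The part of the marker changes in the fall of the nuclear members of undivided epithelial cells was not tested.

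The difference was seen at each mitochondrial share that held at least 20 cells in every library. In undivided epithelial cells with 5 to 10% mitochondrial counts, the nuclear members took 6.58% and 6.42% of all other counts in control and 5.50% and 5.58% in CCl4 libraries. At 10 to 25% the values were 7.02%, 6.91%, 6.2% and 6.4%. Above 25%, in cells otherwise left out, they were 6.57%, 6.47%, 5.63% and 5.83%. The groups did not overlap in any of these 3 ranges. In colonocytes at 5 to 10%, the values were 7.52%, 7.62%, 7.36% and 7.01%, with the groups apart. At 10 to 25% they were 8.34%, 7.99%, 7.99% and 7.77% in colonocytes, nearly touching. Above 25% the colonocyte values were 8.45%, 7.98%, 7.95% and 8.09%, and the groups overlapped. With finer clusters undivided epithelial cells were a larger class, with 470 and 381 cells in control and 1114 and 979 in CCl4 libraries. It took in a cluster of 541 cells with 9 colonocyte markers raised. In this class 7 nuclear members were called, with a median of -0.14. In the main class with at most 10% mitochondrial counts 5 were called. The median was then -0.23 and 39 of 76 had an unadjusted p under 0.05. Calls over all genes there went from 492 to 70 at this limit.

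Lists of neighbouring pathways in undivided epithelial cells were read against the 2.5% of all genes called lower there and the 4.09% called in either direction. Of 6 subunits outside the symbol rule that were tested, 4 were called lower: Cox4i1 by 0.35, Ndufab1 by 0.36, the electron carrier cytochrome c (Cycs) by 0.35 and the ATP synthase inhibitor Atpif1 by 0.32 on the log2 scale. Their list median was -0.33. Of 46 assembly factors, 3 were lower (Taco1, Ndufaf8 and Uqcc2), with a median of 0.00, and of 77 proteins of the mitochondrial ribosome, 4 were lower and 1 higher, with a median of -0.11. Of 14 glycolytic enzymes, 4 were lower: Tpi1 by 0.45, Hk2 and Ldha by 0.41 and Aldoa by 0.33. Of 18 genes that copy and transcribe mitochondrial DNA and 16 of the tricarboxylic acid cycle, 0 were called in either list. Of 10 regulators 1 was lower, the coactivator Ppargc1b by 0.45. The counts of assembly factors and of the mitochondrial ribosome were small and somewhat above the share over all genes. They were not tested as sets, and no conclusion is drawn from them. In goblet cells Ppargc1b was instead called higher, by 1.19.

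Smooth muscle, fitted outside the planned classes with 705 cells, had 8 of 75 nuclear members called lower and 0 higher (1.17% of all genes were called lower), with a median of -0.27. Cox6c had 2220, 2173, 1526 and 1424 CPM (-0.57, SE 0.102, edgeR adjusted p = 2.524e-05), with both CCl4 libraries below both controls. The others were Cox6a1, Cox6b1, Ndufa5, Ndufb3, Ndufb9, Atp5k and Atp5o, with changes of -0.58 to -0.42. The nuclear share was 3.28% and 3.33% in control and 2.86% and 2.71% in CCl4 libraries. DESeq2 called 1, and 1 was called without CCl4 replicate 2.

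Markers of other cells moved in the smooth muscle class too. Fibroblast markers were called higher for 7 of 7 (Pdgfra by 3.61), with sums of 0.458% and 0.417% in control and 0.801% and 0.944% in CCl4 libraries. Endothelial markers were higher for 5 of 6 tested, with sums of 0.0177%, 0.02%, 0.0367% and 0.0636%. Its own markers were lower for 6 of 7, Actg2 and Des by 0.62 and 0.60, with sums of 2.19%, 2.36%, 1.79% and 1.58%. No marker of these 3 lists was at 0. The part of these other cells in the fall was not tested.

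In the other classes 0 nuclear members were called. The share of all tested genes called in either direction, at the adjusted threshold, is given in brackets here. It is a background for these calls, not for the counts of members at an unadjusted p. The number of members at an unadjusted p under 0.05 was 6 of 79 in fibroblasts (2.07%), 8 of 75 in endothelial cells (0.707%), 5 of 76 in macrophages and monocytes (1.26%), 5 of 75 in colonocytes (0.943%) and 8 of 75 in goblet cells (1.2%). It was 3 of 74 in T cells (0.912%), 6 of 75 in plasma cells (1.41%), 5 of 76 in glia (0.708%) and 5 of 76 in the contractile cluster (0.758%). DESeq2 called 1 lower in colonocytes and 0 in the rest of these. Medians of the nuclear members lay between -0.05 and 0.04. Lymphatic endothelial cells had 0 of 73 called (0.223%), with 2 at an unadjusted p under 0.05 and a median of -0.07.

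The change of a member could be compared among the 8 planned classes in 1 fit, with an F test of all class-by-treatment terms. It was called for 11 of 13 mitochondrial and 12 of 78 nuclear members (5.73% of all genes were called). The 12 nuclear members were Cox7a1, Atp5k, Atp5g1, Atp5j2, Ndufa13, Uqcrq, Uqcr11, Atp5d, Ndufa11, Atp5e, Uqcr10 and Ndufa3. Their lowest change was in undivided epithelial cells. For mt-Co1 the change ran from -0.05 in undivided epithelial to 0.62 in plasma cells (edgeR adjusted p = 1.316e-07). For mt-Co2 it ran from -0.14 to 0.43 in the same classes (edgeR adjusted p = 4.679e-06). With at most 10% mitochondrial counts, 0 mitochondrial members and 1 nuclear member were called, beside 2.92% of all genes.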

How the data were processed

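The authors deposited whole-number counts of genes in cell barcodes from PISA v0.12b (per the file headers), on GRCm38 per the submitters' processing notes. No source used here gives the aligner or the use of strand. The lowest barcode total was 1001. Members, gene lists and tests were chosen with earlier results of these data known. Cells needed 200 genes and no more than 25% mitochondrial counts, and the 6% with the highest scrublet scores (scanpy 1.11.5) were removed per library as doublets. Members and mitochondrial genes were left out, and 2000 variable genes, 30 principal components and 15 neighbours went into leidenalg 0.10.2 at resolution 1.0. No batch correction was made. A cluster was named where at least 3 markers of a set, and most of the set (a condition chosen after seeing the data), were raised in it. Counts summed per class and library (266491 to 12199493) were tested with edgeR 4.0.16 (TMM, filterByExpr, treatment only) in R 4.3.3, with Benjamini-Hochberg adjustment at 0.05. DESeq2 1.42.0 was an alternative. All tests were two-sided. Named genes were the mitochondrial members, the 5 called nuclear members with the smallest p per class and direction, the 10 nuclear members with the widest range over classes, the isoform sets and the 10 smallest p among classes. Other genes are given as further calls or markers. On simulated counts for undivided epithelial cells, 52 of 100 genes changed 2-fold and 88 of 100 changed 4-fold were recovered. There were 5 false calls among the unchanged genes of the 12030. At 2-fold, 36 of 100 were recovered in T cells and 39 in plasma cells, the lowest, and 64 in colonocytes and goblet cells, the highest. Changes under 2-fold were not simulated. Positions are from GENCODE M21 on GRCm38.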

Additional observations from a re-analysis of the deposited data

Results flagged for a closer look

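The change between CCl4 and control libraries differed among the 8 planned classes for 12 nuclear and 11 mitochondrially encoded members, by the edgeR F test of all class-by-treatment terms. The adjusted p was 1.316e-07 for mt-Co1, 4.679e-06 for mt-Co2, 7.258e-06 for mt-Atp6, 0.0001476 for mt-Co3, 0.0001959 for mt-Nd4, 0.0002859 for mt-Cytb and 0.0005436 for mt-Nd5. Each of these had its lowest change in undivided epithelial cells and its highest in plasma cells. Of the nuclear members, Cox7a1 had an adjusted p of 4.695e-05, with changes of -0.52 in undivided epithelial and 1.33 in plasma cells. Atp5k had 0.0009393 and Atp5g1 0.0009604 in the same test. Atp5g1 ran from -0.41 in undivided epithelial to 0.43 in endothelial cells. The counts without 1 library went down to 1 nuclear (CCl4 replicate 1) and 7 mitochondrial members (control replicate 2).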

How the results depend on the processing

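Library numbers 1 and 2 are only numbers in the labels, with 2 pairs, and the differences of the numbered libraries correlated by -0.008 to 0.184 over all genes of a class, and by -0.522 (goblet cells) to 0.517 (fibroblasts) over the members. With the replicate number as a block, nuclear calls were 2 in fibroblasts, 1 in macrophages and monocytes and 1 in colonocytes, and mitochondrial calls were 8, 8 and 2 in these, 1 in endothelial cells, 1 in undivided epithelial cells (lower) and 7 in T cells. DESeq2 called 1 nuclear and 0 mitochondrial members in colonocytes, 5 mitochondrial in T cells, 1 nuclear in smooth muscle, and 26 nuclear among classes. Without the low-count filter, nuclear calls were 2 in fibroblasts and 1 in plasma cells, and mitochondrial calls 1 in endothelial and undivided epithelial cells and 0 in colonocytes. At most 10% mitochondrial counts gave 1 mitochondrial call in fibroblasts and in macrophages and monocytes, 0 in colonocytes, goblet cells, T cells, glia and the contractile cluster, and 4 in undivided epithelial and in plasma cells. Nuclear calls were then 5 in undivided epithelial cells and 3 in smooth muscle, and 1 nuclear and 0 mitochondrial among classes. The ratio was then 0.12 in fibroblasts, 0.19 in colonocytes, 0.24 in goblet cells, 0.44 in undivided epithelial cells, 0.42 in plasma cells, 0.10 in glia and 0.19 in the contractile cluster. Without a mitochondrial limit, fibroblasts had 2 nuclear and 7 mitochondrial calls, macrophages and monocytes 7, colonocytes 2 and T cells 8, and the ratio was 0.28, 0.34, 0.26 and 0.40 in these, 0.43 in glia and 0.40 in the contractile cluster. With doublets kept, nuclear calls were 1 in fibroblasts and endothelial cells, mitochondrial calls 1 in endothelial cells, 5 in macrophages and monocytes, 0 in colonocytes and 2 in glia, and the smooth muscle ratio 0.24. At resolution 2.0 there were 6 mitochondrial calls in macrophages and monocytes, 2 in colonocytes, 7 nuclear in undivided epithelial cells, 13 in smooth muscle and 5 among classes. The undivided epithelial class held more cells at this setting, as given above. At most 0.25% leaked counts left 1 mitochondrial call in fibroblasts, macrophages and monocytes and glia, 4 in plasma cells and 2 in the contractile cluster, with ratios of 0.11, 0.23 and 0.21 in fibroblasts, macrophages and monocytes and the contractile cluster.

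Leaving out 1 library at a time, mitochondrial calls ranged over 2 to 7 in fibroblasts, 0 to 4 in endothelial cells, 1 to 6 in macrophages and monocytes, 0 to 3 in colonocytes, 6 to 11 in goblet cells, 0 to 2 in undivided epithelial cells, 1 to 4 in T cells, 1 to 11 in plasma cells, 4 to 5 in glia, 3 to 9 in the contractile cluster and 0 to 1 in smooth muscle, all higher except 1 lower in undivided epithelial cells and 1 in smooth muscle, both without CCl4 replicate 1. Nuclear calls ranged over 18 to 28 in undivided epithelial cells, 1 to 3 in smooth muscle and 0 to 1 in fibroblasts, colonocytes, plasma cells and the contractile cluster, and 1 to 10 nuclear and 7 to 11 mitochondrial among classes. The endothelial ratio ranged from -0.02723 (without CCl4 replicate 1) to 0.2714. Of the named gene calls, 0 reversed, over 36 at the leak limit, 44 at resolution 2.0 and 51 under the other alternatives. Calls lost were 20 of 36 at the leak limit, 39 of 51 at 10% mitochondrial counts, 22 of 51 without CCl4 replicate 1 and 0 of 51 under scaling without mitochondrial genes. The causes were not tested.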
